A study of Mus musculus with 2 samples.

Results

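Transcripts of the mitochondrial genome were described together with 3 nuclear pseudogenes that carry copies of it, in the hippocampus of young mice. The members were the 37 genes whose symbol starts with mt- and the pseudogenes Gm28661, Gm10925 and Gm28437, which makes 40 of the 55536 genes in the tables. The 37 mitochondrial genes comprised 13 mRNA, 2 ribosomal RNA (rRNA) and 22 transfer RNA (tRNA) genes, and they were all the genes annotated on the mitochondrial chromosome (chromosome M). The pseudogenes were chosen by their deposited TPM, which was among the highest of all genes, and the posterior standard deviation of their counts was known when they were chosen. Those values are therefore given as a description, without a test.

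The tissue was labelled as a layer of hippocampus from male B6CASTF1/J mice aged 14 days, hybrids of the C57BL/6J and CAST/EiJ strains. Total RNA was sequenced in 2 libraries, biological replicates 1 and 2 of a single group, each made from 300 ng of RNA with added ERCC spike-ins, which are synthetic control RNAs. The labels list 3 males per library and do not say if they were pooled. No treatment or genotype was compared, so the values below are levels, ratios between genes and differences between the libraries. Genes held 29144892 expected counts (estimated reads per gene) in replicate 1 and 31755578 in replicate 2. Levels are given in TPM, which divides the counts by effective length and scales each library to the same total. A value written as mean ± SD covers both libraries (n = 2). Markers of excitatory neurons such as Camk2a, at 1280 ± 33.2 TPM, and Slc17a7, at 675 ± 16.9, were abundant in both libraries.

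The mitochondrial genome is a small circular DNA that encodes subunits of the respiratory chain and of ATP synthase, together with the rRNAs and tRNAs needed to translate them inside the organelle. Both of its strands are transcribed as long precursors. These are cut mainly at the tRNAs that lie between the other genes, and most of the resulting mRNAs are then polyadenylated. Stretches of mitochondrial DNA have also been inserted into nuclear chromosomes during evolution. Where such an insertion is recent, reads from it and reads from the mitochondrial gene can be identical in sequence.

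In the reference sequences the 3 pseudogenes were almost letter for letter the mitochondrial genes they derive from. They lie next to each other on the minus strand of chromosome 1 (mm10), within 24613189 to 24615565. Gm28661 (chr1:24614885-24615565) is annotated with 681 bases, all identical to the first 681 of the 684 bases of mt-Co2 (chrM:7013-7696), which encodes subunit 2 of cytochrome c oxidase. Gm10925 (chr1:24613974-24614651) has 678 bases, identical to the first 678 of the 681 bases of mt-Atp6 (chrM:7927-8607), a subunit of ATP synthase. Gm28437 (chr1:24613189-24613971) has 783 bases, identical to the first 783 of the 784 bases of mt-Co3 (chrM:8607-9390), subunit 3 of cytochrome c oxidase. The ends of each pair are shown because they hold the sole letters that tell gene and copy apart. The sequences are GENCODE M21 transcripts, written 5′ to 3′ and starting at base 625 of mt-Co2, 622 of mt-Atp6 and 725 of mt-Co3, with capitals for the bases past the end of the copy.
mt-Co2: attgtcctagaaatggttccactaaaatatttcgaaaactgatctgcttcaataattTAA
Gm28661: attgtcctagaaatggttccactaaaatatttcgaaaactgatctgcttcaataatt
mt-Atp6: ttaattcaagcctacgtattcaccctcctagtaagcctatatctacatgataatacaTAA
Gm10925: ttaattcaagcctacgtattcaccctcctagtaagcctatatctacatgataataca
mt-Co3: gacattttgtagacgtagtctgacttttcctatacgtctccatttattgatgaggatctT
Gm28437: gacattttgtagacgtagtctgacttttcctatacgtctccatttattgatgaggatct

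The bases by which each mitochondrial transcript is longer are its stop codon, TAA in mt-Co2 and mt-Atp6. In mt-Co3 it is the single T that polyadenylation completes to a stop codon.

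The copies belong to a longer stretch. All 7 genes annotated within 5 kb of the 3 pseudogenes were copies of mitochondrial mRNA genes, and together they span chr1:24611535-24616197, which is 4663 bases. From the highest coordinate to the lowest they run Gm29216, Gm28661, Gm10925, Gm28437, Gm28438, Gm10222 and Gm28439. Their sources are mt-Co1, mt-Co2, mt-Atp6, mt-Co3, mt-Nd3, mt-Nd4l and mt-Nd4, which is the order of these genes on the mitochondrial heavy-strand transcript. The distance along the nuclear stretch matched that along the mitochondrial genome from Gm29216 to Gm28438, and from Gm10222 on it was shifted by 1 base. Gm10222 was identical to the first 294 of the 297 bases of mt-Nd4l and Gm28439 to the first 876 of the 1378 bases of mt-Nd4. Both sources encode subunits of complex I, the NADH dehydrogenase.

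The remaining pair of copies had differences inside the shared part. They are shown because these letters differ between gene and copy. Capitals mark the bases that differ, and positions count from 1 at the first base of the mitochondrial gene. Gm28438 carried T3C relative to mt-Nd3, another complex I subunit, and bases 1 to 60 of both follow.
mt-Nd3: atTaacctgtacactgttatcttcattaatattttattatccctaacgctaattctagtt
Gm28438: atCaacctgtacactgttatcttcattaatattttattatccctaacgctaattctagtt
Gm29216 (chr1:24615706-24616197) matched bases 1063 to 1545 of mt-Co1, the catalytic subunit of cytochrome c oxidase, with the substitution A1066T. Its first 9 bases lie outside the alignment, and 5 further letters differ there when both are written from base 1054 of mt-Co1.
mt-Co1: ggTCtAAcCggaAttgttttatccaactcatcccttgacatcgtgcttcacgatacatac
Gm29216: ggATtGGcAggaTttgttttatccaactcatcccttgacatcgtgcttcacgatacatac

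Elsewhere in the genome, 9 annotated genes resembled a mitochondrial mRNA in the same orientation. Their longest alignment had 90% identity or more over at least 80% of their own length. Their identities ranged from 90.67% to 97.61%, well short of the chromosome 1 stretch, and they held few reads. Together they had 91 counts in replicate 1 and 61 in replicate 2. Gm13341 on chromosome 2, a copy of mt-Co2 at 95.91% identity, had 61.7 and 28.2 expected counts. Its neighbour Gm13340, a copy of mt-Co1 at 97.61% identity, had 27.3 and 32.9.

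How much of each transcript could be told apart was counted in stretches of 100 bases. In the gene tables the effective length is the length minus 99, so a stretch of 100 bases is the unit in which these tables count positions. Among the 585 stretches of mt-Co2, 582 also occurred in another annotated transcript and 3 did not. For mt-Atp6, 579 of 582 were shared, and for mt-Co3, 684 of 685. The transcripts of mt-Nd4l and mt-Nd3 were likewise nearly all shared, at 195 of 198 and 243 of 249. Other transcripts were shared in part, with 777 of 1279 stretches in mt-Nd4, 446 of 1446 in mt-Co1 and 30 of 939 in mt-Nd2. No stretch was shared with another annotated transcript in either rRNA or in mt-Nd1, mt-Atp8, mt-Nd5, mt-Nd6 and mt-Cytb. The genome sequence itself was not searched, so copies without an annotation, such as any of mt-Atp8 between Gm28661 and Gm10925, would be missed. None of the stretches of Gm28661, Gm10925 and Gm28437 was their own.

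**Figure D1:**
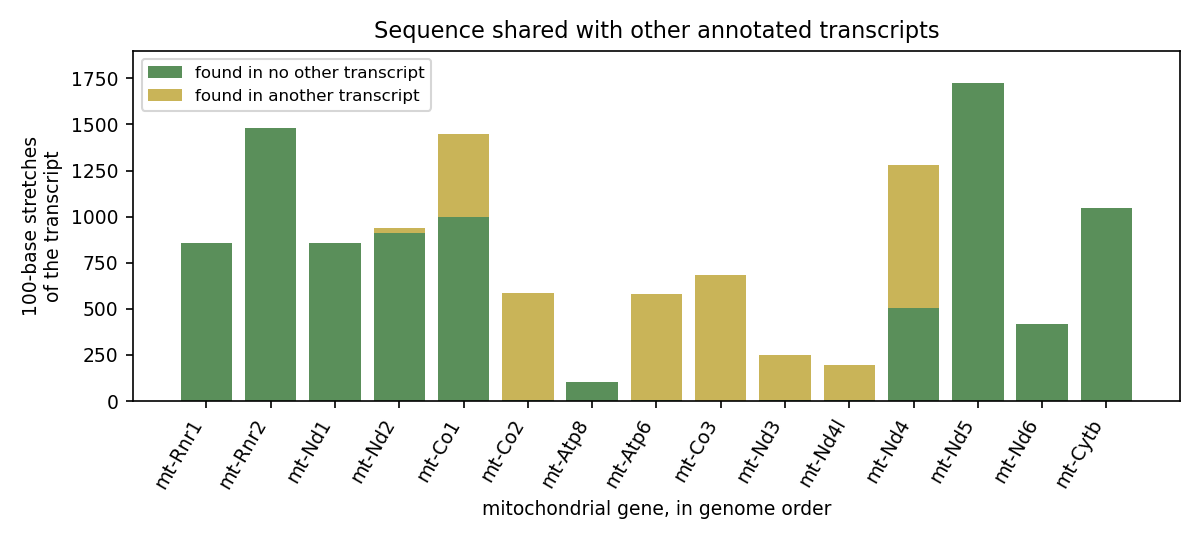
Number of 100-base stretches (y axis) of the 2 mitochondrial rRNAs and 13 mRNAs in genome order (x axis), split by whether the same stretch occurs in another annotated transcript. In mt-Co2, mt-Atp6 and mt-Co3 only 3, 3 and 1 stretches occur in no other annotated transcript, while both rRNAs share none.

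The deposited gene tables gave most of the reads of these pairs to the nuclear pseudogenes. In replicate 1 mt-Co2 had 2243 counts and Gm28661 had 86039, and in replicate 2 they had 1518 and 83610. The copy thus held 97.5% and 98.2% of the pair's counts. For mt-Atp6 the counts were 32540 and 30637 in replicates 1 and 2, against 71823 and 67718 for Gm10925, or 68.8% and 68.9% for the copy. For mt-Co3 they were 19723 and 23424, against 62769 and 56785 for Gm28437, or 76.1% and 70.8%. Over the 3 pairs the pseudogenes held 79.6% ± 0.896 of the counts. The 3 were picked for their high TPM, and that choice favoured a high share. In TPM the pseudogenes stood at 7326 and 6685 (Gm28661), 6147 and 5442 (Gm10925), and 4548 and 3863 (Gm28437), so the entries of all 3 ranked above their mitochondrial sources in both libraries.

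The other copies in the stretch were treated differently by the same tables. Gm29216, which has 13 stretches of its own, held 16365 and 15501 counts. In both libraries this was 8.66% of the summed counts of Gm29216 and mt-Co1. Most of that sum need not be shared, since 380 of the 1446 stretches of mt-Co1 occur in Gm29216. Gm10222, Gm28438 and Gm28439 rounded to 0 counts in both libraries. Over their own length Gm10222 and Gm28439 were nevertheless identical to their sources, as the 3 pseudogenes were. By expected counts, the share of such copies in their pairs therefore ran from near 0 for mt-Nd4l and mt-Nd4 to 98.2% for mt-Co2. These pairs are not alike, since mt-Nd4 extends past its copy. It has 502 stretches of its own, against 3 each in mt-Nd4l and mt-Co2. Reads from the nuclear copy and from the mitochondrial gene cannot be told apart where the letters are the same. The letters compared are those of the reference, and the sequences of the CAST/EiJ strain were not examined.

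The tables also deposit a posterior standard deviation, a measure of how firmly the reads could be placed, and a posterior mean count. These too belong to the description by which the pseudogenes were picked. Within each pair the gene and its copy carried nearly the same posterior SD, 3150.31 counts for mt-Co2 and 3149.75 for Gm28661 in replicate 1. It was 2706.02 for both mt-Atp6 and Gm10925, and 4621.97 for both mt-Co3 and Gm28437. The shares that follow divide the posterior SD by the expected count, and not by the posterior mean that it belongs to. On that scale the posterior SD of mt-Co2 was 140% in replicate 1 and 166% in replicate 2. That of mt-Co3 was 23.4% and 14.8%, and that of mt-Atp6 8.32% and 11.8%. Over all tested genes, 6.26% had a posterior SD above 5% of the expected count in at least 1 library. By the posterior mean mt-Co2 had 13744 and 12814 counts in place of 2243 and 1518, well above its posterior SD. The pseudogenes then held 84.4% and 84.9% (mt-Co2), 63.7% and 63.2% (mt-Atp6) and 56.3% and 54.5% (mt-Co3) of their pairs. Gm10222, at 0 by expected counts, had posterior means of 798 and 521, or 8.07% and 6.14% of its pair with mt-Nd4l.

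A further deposited table per library, whose columns have the layout of the program kallisto, divided the same pairs in another way. There Gm28661 held 92.1% and 89.7% of the counts of its pair in replicates 1 and 2, Gm10925 23.5% and 30.6%, and Gm28437 56.2% and 50.4%. Gm29216 had 1201 and 368 counts there, or 0.651% and 0.213% of its pair. Gm28439, which the gene tables left at 0, had 1108 and 1461, or 2.05% and 2.92%. The sums of gene and copy also differed between the tables, and those of the gene tables were 1.31 and 1.29 times those of the kallisto layout for the mt-Co2 pair and 1.73 times in both libraries for the mt-Atp6 pair.

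**Figure D2:**
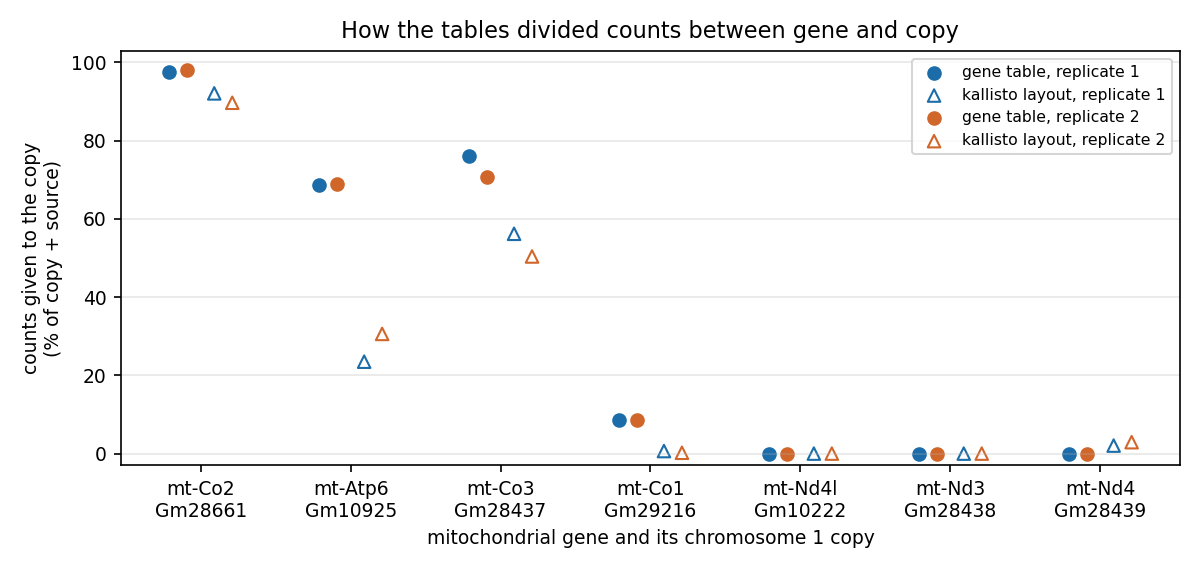
Percent of the summed expected or estimated counts of gene and copy that each deposited table gave to the copy (y axis), for the 7 mitochondrial genes with a copy on chromosome 1 (x axis). Circles are the gene tables, triangles the kallisto layout, and colours the 2 libraries. By these counts Gm28661 takes 89.7% to 98.2%, Gm10925 23.5% to 68.9%, and the copies of mt-Nd4l, mt-Nd3 and mt-Nd4 at most 2.92%.

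Mitochondrial genes as annotated took 8.895% of the gene counts in replicate 1 (Clopper-Pearson 95% interval 8.885 to 8.906) and 7.185% in replicate 2 (7.176 to 7.194). With the 3 pseudogenes added the shares became 9.652% and 7.84%. The pseudogenes themselves held 0.757% and 0.6554%. The 13 mRNAs as annotated held 1.769% and 1.55%, and with all 7 copies added 2.583% and 2.254%. These intervals cover counting error only. The spread between the libraries was far wider than the intervals.

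The rRNAs made up most of the mitochondrial counts, at 7.126% of gene counts in replicate 1 and 5.635% in replicate 2. mt-Rnr2 (chrM:1094-2675), the RNA of the large mitochondrial ribosomal subunit, had 1478552 and 1288254 counts, or 44900 ± 6350 TPM. mt-Rnr1 (chrM:70-1024), the RNA of the small subunit, had 598271 and 501312 counts, or 30900 ± 5220 TPM. Both come from the same stretch of the heavy-strand precursor. The log2 ratio of mt-Rnr2 to mt-Rnr1 in TPM was 0.51 in replicate 1 and 0.57 in replicate 2, or 1.45-fold, and it passed the rule used for pairs. That rule required the same sign in both libraries and a mean above both 0.5 and 2 SD. The libraries were labelled as reduced in ribosomal RNA, and how well that step removed each mitochondrial rRNA was not tested. Against mt-Co1, mt-Rnr2 was 8.01-fold higher, with a log2 ratio of 3.00 ± 0.086.

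The tRNAs gave no measurement. All 22 have between 59 and 75 bases, and all were listed at 0 counts in both libraries and both kinds of table. In the gene tables their effective length was 0, as it was for 2398 genes of the whole table, so no read could be assigned to them. The 0 therefore sets no upper limit on their level. The shortest, mt-Ts2, which reads serine codons, and the longest, mt-Tl1, which reads leucine codons, are shown whole, since every tRNA lies between them in length and below the 100 bases that the gene tables require. The kallisto layout gave the tRNAs effective lengths of 21.7 to 25.2 bases and also listed them at 0.
mt-Ts2: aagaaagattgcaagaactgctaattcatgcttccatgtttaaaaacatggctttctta
mt-Tl1: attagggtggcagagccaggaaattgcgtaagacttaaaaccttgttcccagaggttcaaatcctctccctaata
By annotation 14 of the tRNA genes lie on the plus and 8 on the minus strand.

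The 13 mRNAs spanned a wide range of TPM in the gene tables as deposited. mt-Co1 (chrM:5328-6872) was the highest, with 172545 and 163554 counts and 5913 and 5263 TPM in replicates 1 and 2. It was followed by mt-Cytb (chrM:14145-15288), the mitochondrial subunit of complex III, at 3547 and 3131 TPM, and by mt-Nd1 (chrM:2751-3707) at 3121 and 2899. mt-Atp8 (chrM:7766-7969), the small ATP synthase subunit, had 3187 and 2567. Neighbours in the order were taken to differ beyond their spread when both libraries shared a sign and the mean log2 ratio exceeded 2 SD. mt-Nd1 and mt-Atp8 exchanged places between the libraries, and their log2 ratio of 0.07 ± 0.15 was within its spread. mt-Atp6 had 2771 and 2449 TPM.

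The lower part of the order held mostly complex I subunits. mt-Nd4l (chrM:9877-10173) had 2474 and 1992 TPM and mt-Nd4 (chrM:10167-11544) 2179 and 1903, which did not differ beyond their spread. Next came mt-Co3 with 1427 and 1591, mt-Nd3 (chrM:9459-9806) with 1595 and 1370, mt-Nd2 (chrM:3914-4951) with 1502 and 1307, and mt-Nd5 (chrM:11742-13565) with 1392 and 1263. Of these, mt-Co3 did not differ from either neighbour beyond its spread, nor mt-Nd2 from mt-Nd5. At the bottom were mt-Nd6 (chrM:13552-14070), with 2001 and 2082 counts and 236.1 and 230.7 TPM, and mt-Co2, with 190 and 120.8 TPM. Those last genes did not differ beyond their spread either, with a log2 ratio of 0.62 ± 0.44.

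Adding the reads of the copies changed the head of this order. For that purpose the counts of each copy were added to its source and divided by the effective length of the source. mt-Atp6 then led with 8886 and 7864 TPM, followed by mt-Co2 with 7478 and 6771, mt-Co1 with 6474 and 5762, and mt-Co3 with 5968 and 5449. Each of these differed from the next beyond its spread. mt-Co2 thereby moved from the last place to the next after mt-Atp6, 39.4 times its deposited level in replicate 1 and 56.1 times in replicate 2. The 3 cytochrome c oxidase mRNAs, whose products enter the same enzyme, came close together. The log2 ratio of mt-Co1 to mt-Co2 was 5.20 ± 0.34 as deposited and -0.22 ± 0.018 with the copies. That of mt-Co2 to mt-Co3 was -3.31 ± 0.57 as deposited and 0.32 ± 0.0085 with the copies. Neither sum says which of its reads came from the nucleus.

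The kallisto layout, with copies added in the same way, had the same 4 genes in front, in the order mt-Co2 (12300 ± 738 TPM), mt-Atp6 (10900 ± 967), mt-Co1 (9300 ± 878) and mt-Co3 (8790 ± 562). There mt-Co1 and mt-Co3 did not differ beyond their spread, with a log2 ratio of 0.08 ± 0.044. The kallisto layout also differed in the short transcripts. mt-Atp8 with 204 bases was listed at 0 in both libraries, mt-Nd4l with 297 bases had 13 and 10 counts, and mt-Nd3 with 348 bases had 55 and 58. The gene tables gave the same genes 6753 and 5793, 9885 and 8478, and 8016 and 7329 counts. In the kallisto layout the length of members of at least 500 bases exceeded their effective length by 336 to 346 bases, against 99 in the gene tables. Whether this set the low values of the short transcripts was not tested.

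**Figure D3:**
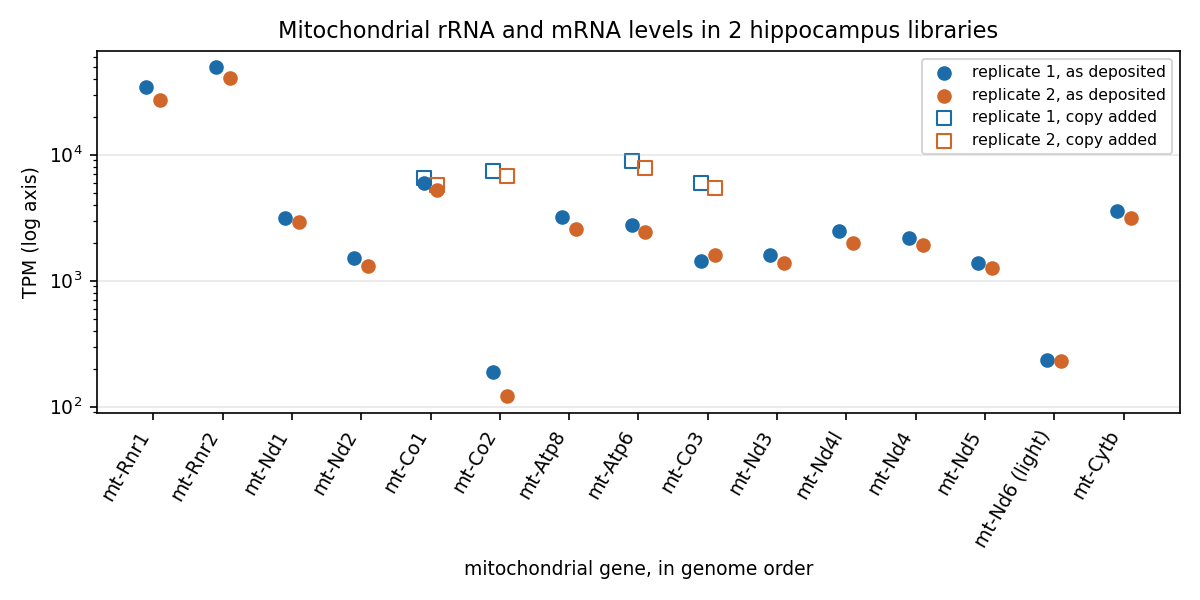
TPM on a log axis (y) of the mitochondrial rRNAs and mRNAs in genome order (x) in each library. Filled circles are the gene tables as deposited, and open squares add the counts of the chromosome 1 copies, drawn for genes that change by more than 1%. mt-Co2 goes from 190 and 120.8 TPM to 7478 and 6771, and mt-Nd6, the light-strand mRNA, stays at 236.1 and 230.7.

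mt-Nd6 is the only mRNA gene on the other strand, and in the gene tables its level was the lowest of all mRNAs once the copies were added. In the kallisto layout, at 383 ± 28.7 TPM, it stood above mt-Nd3, mt-Nd4l and mt-Atp8. The median TPM of the 12 heavy-strand mRNAs exceeded that of mt-Nd6 by a log2 ratio of 3.30 in replicate 1 and 3.08 in replicate 2. mt-Nd5, which overlaps mt-Nd6 by 14 bases from the opposite strand, was 5.68-fold higher (log2 ratio 2.51 ± 0.075). The heavy-strand precursor also runs across the mt-Nd6 gene, and the sources used here do not give the strand setting of the counting. Without it, reads of mt-Nd6 and of its antisense RNA cannot be told apart. The kallisto layout had 1143 and 1100 counts for mt-Nd6.

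Some mRNAs are known to stay joined, namely mt-Atp8 with mt-Atp6, which overlap by 43 bases, and mt-Nd4l with mt-Nd4, which overlap by 7. As deposited, the log2 ratio of mt-Atp8 to mt-Atp6 was 0.13 ± 0.095, which did not pass the rule for pairs. With Gm10925 added to mt-Atp6 it was -1.55 ± 0.096, which did. That sum adds a copy to mt-Atp6 alone, because no copy of mt-Atp8 is annotated in the chromosome 1 stretch. The mt-Atp8 gene lies between mt-Co2 and mt-Atp6, and whether the stretch between their copies holds it was not examined. mt-Nd4l and mt-Nd4 differed by 0.12 ± 0.083, below the rule, and the copies Gm10222 and Gm28439 had expected counts that rounded to 0. In the kallisto layout, where mt-Nd4l had 13 and 10 counts, the ratio was -8.13 ± 0.18, which passed the rule. The effective length of mt-Atp8 was 105 of its 204 bases.

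Between the libraries, most members that could be tested were lower in replicate 2. Each gene's counts were compared with an exact two-sided binomial test after scaling with TMM factors (trimmed mean of M-values), with Benjamini-Hochberg adjustment over 18332 genes that had a mean count of at least 10. The test compares these libraries beyond counting noise and not conditions. It called 22.7% of all genes tested, 10.2% as lower and 12.5% as higher in replicate 2. Of the 40 members, 18 could be tested, and the 22 tRNAs could not. Among the 18, 16 were lower in replicate 2, mt-Co3 was higher, and mt-Nd6 did not pass. The members have deep counts, and of 5472 genes with a mean count of at least 1000, 41.8% were called, 14.1% as lower and 27.7% as higher. Genes of that depth had log2 ratios of -0.29 to 0.30 in their central 95%.

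The rRNAs fell by 0.39 (mt-Rnr1) and 0.34 (mt-Rnr2) on the log2 scale from replicate 1 to replicate 2, both below that central range. So did mt-Atp8 and mt-Nd4l, at -0.36 each, and mt-Co2, at -0.70. The median over the 13 mRNAs was -0.23, against 0.00 over all genes tested. The remaining mRNAs that were lower ran from -0.27 (mt-Nd3) to -0.15 (mt-Nd1), and mt-Co1 had -0.22. For mt-Nd6 the log2 ratio was -0.08, with an adjusted p of 0.2 by the exact binomial test. The pseudogenes were also lower, Gm28437 by -0.28, Gm10925 by -0.22 and Gm28661 by -0.18.

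Sums of gene and copy gave more even log2 ratios than the separate entries, from -0.22 to -0.18 for the pairs of mt-Co1, mt-Co2, mt-Atp6 and mt-Co3. mt-Co3 alone rose by 0.11 (adjusted p of 1.9e-13, exact binomial test), whereas mt-Co3 and Gm28437 together fell by 0.18. mt-Co2 alone fell by 0.70, and with Gm28661 by 0.19. In the kallisto layout mt-Co2 alone had 5323 counts in replicate 1 and 6795 in replicate 2 and a log2 ratio of 0.26, while the pair had -0.12. Gm10925 alone had 0.21 there and its pair with mt-Atp6 -0.17. With all copies added in the gene tables, 12 of the 13 mRNAs were lower in replicate 2 and none was higher (10.2% and 12.5% of all genes tested in that fit), the exception being mt-Nd6, which did not pass.

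**Figure D4:**
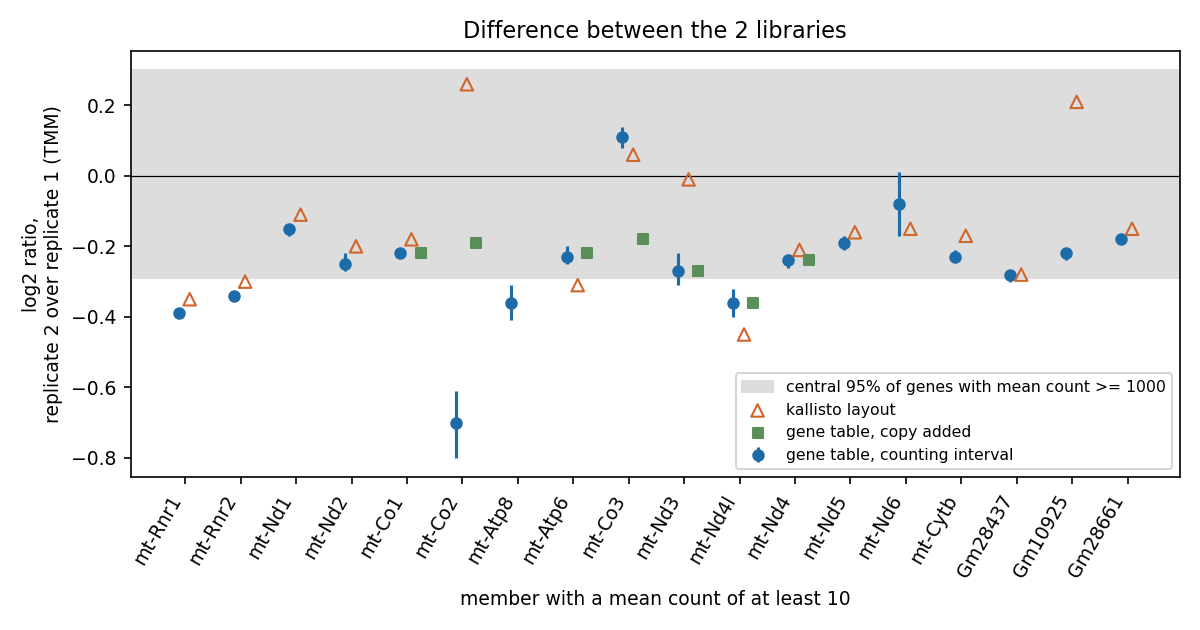
Log2 ratio of replicate 2 to replicate 1 after TMM scaling (y axis) for the 18 members that could be tested (x axis). Circles with bars are the gene tables with the 95% counting interval, triangles the kallisto layout, and squares the gene tables with the copy added. The grey band is the central 95% of genes with a mean count of at least 1000 (-0.29 to 0.30), and the squares of mt-Co2 and mt-Co3 lie inside it at -0.19 and -0.18.

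With an edgeR exact test that assumed a coefficient of variation of 0.1 between replicates, which calls 0.944% of all genes (0.655% as lower and 0.289% as higher), none of the 18 members passed, and 1 of them, mt-Co2, had an unadjusted p under 0.05. Scaling by the spike-ins shifted all log2 ratios by 0.11. The same 16 members then remained lower and mt-Co3 higher, with a median of -0.12 over the mRNAs. Under that scaling 35.5% of all genes tested were called, 5.45% as lower and 30.1% as higher. In the kallisto layout, where 25.3% of all genes tested were called (9.89% as lower and 15.4% as higher), 17 members could be tested. Of these, 11 were lower and 3 higher. mt-Nd3 (-0.01) and mt-Nd4l (-0.45, from 13 and 10 counts) did not pass there.

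Markers of some cell types differed between the libraries as well. The counts that follow are by the exact binomial test with TMM, which called 22.7% of all genes tested and 41.8% of those with a mean count of at least 1000. All 6 myelinating oligodendrocyte markers (Mbp, Mobp, Mog, Mal, Cnp and Opalin) were lower in replicate 2. Their median log2 ratio was -1.21, with a summed level of 1170 TPM in replicate 1 and 643 in replicate 2. All 4 thalamic neuron markers were lower (summed 49.1 and 27.7 TPM), as were 3 of 4 choroid plexus markers (88.6 and 46.8) and all 3 red blood cell markers (506 and 379). Of the excitatory neuron markers 2 of 4 were higher (2690 and 2900), and of the interneuron markers 3 of 4 (308 and 417). Of the astrocyte markers 2 of 4 were lower and 1 higher (1690 in both), of the endothelial markers 1 of 3 was lower and 1 higher (77.5 and 83.7), and of the microglia markers 2 of 3 were higher (83.3 and 96.0). Of the choroid plexus markers, Otx2, Clic6 and Aqp1 had mean levels of 0.69, 0.625 and 0.51 TPM. By edgeR at the assumed variation, 5 of 6 oligodendrocyte, 2 of 4 choroid plexus and 2 of 4 thalamic markers passed, and no marker of the other lists did. The part of these differences in the mitochondrial ones was not tested. In whole tissue, fewer cells of a type and less RNA per cell cannot be told apart.

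Nuclear genes whose products maintain mitochondrial RNA and DNA were expressed at modest levels. All 45 listed genes were testable, with a median level of 9.12 TPM. Of these, 4 were lower in replicate 2, 2 were higher and 39 did not pass, with a median log2 ratio of -0.05. The same test called 22.7% of all genes, and by edgeR 1 of the 45 passed. For replication of mitochondrial DNA, Polg, the catalytic subunit of its polymerase, had 37.9 ± 3.76 TPM and Twnk, the helicase, 6.14 ± 0.0212, and none of 5 genes passed. For transcription, Polrmt, the mitochondrial RNA polymerase, had 18.0 ± 1.46 and Tfam, which packages and activates the genome, 16.3 and 15.6 in replicates 1 and 2. In that list Mterf4 was lower (log2 ratio -0.32) and Mterf1b higher (1.59), the latter from 21 and 71 counts. Its close paralogue Mterf1a had -0.47 (adjusted p of 0.066, exact binomial test), and how reads were divided between them was not tested.

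RNA processing and turnover genes were of the same order. Of the 4 genes for cutting and finishing tRNA ends, led by Trnt1 (23.1 ± 0.0849 TPM), which adds the CCA end, none passed. Among 10 genes for RNA stability and polyadenylation, Fastk had 47.1 ± 0.601, Grsf1 44.7 ± 0.728, Slirp 37.3 ± 0.983 and Lrpprc 28.9 ± 1.64. Slirp and Lrpprc form a complex that stabilises mitochondrial mRNAs, and neither passed. In the same list Fastkd2 and Fastkd3 were lower, at -0.49 and -0.34. For RNA decay, Rexo2 had 38.3 ± 1.67 and Pde12 was higher (0.30), 1 of 4 genes. None of 5 rRNA modification genes passed, and of 8 tRNA modification genes only Trmu, which thiolates tRNAs, was lower (-0.44).

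Of 19 nuclear genes that encode partner subunits of the same respiratory complexes, none was lower, 2 were higher and 17 did not pass, with a median log2 ratio of 0.03. Over all genes the test called 22.7%, and 41.8% of those with a mean count of at least 1000. By edgeR at the same assumed variation none of them passed. Those higher were Cox4i1 of complex IV (0.07, 481 ± 22.9 TPM) and Atp5b, the catalytic subunit of ATP synthase (0.06, 805 ± 23.7 TPM). Of complex III, Uqcrc1 had 167 ± 3.16 TPM. Whether nuclear and mitochondrial subunits differ in their ratio between the libraries was not tested beyond these counts.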

How the data were processed

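Hippocampal total RNA of a single group was measured in 2 libraries. Expected counts, posterior mean counts and TPM per gene were deposited by the authors, with lengths and posterior standard deviations of the counts in columns of their own. Per the file headers, a further table per library gives estimated counts and TPM per transcript in the layout of kallisto, and these were summed per gene. Build mm10 and annotation GENCODE M21 are named in the deposited notes. The gene tables derive from alignments to the transcriptome and the kallisto layout from read files, per the same notes. The aligner, the quantifiers and their versions are not named in the sources used here.

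Members were found by symbol, and 55536 genes entered totals and tests. Spike-ins (0.516% and 0.484% of counts in replicates 1 and 2) and entries that carry only a number (2.67e-05% and 9.4e-06%) were left out. Totals with spike-ins were 29296141 and 31910050, and a gene at 0 may still have had up to 3 counts, which is 0.103 and 0.0945 CPM (counts scaled to library size). Intervals and this limit cover counting error only. The limit does not apply to the tRNAs, to which no read could be assigned. Nor does it apply to copies that share their stretches with a source, such as Gm10222 and Gm28439. Copies were annotated transcripts aligned in the same orientation to the mitochondrial ones by blastn 2.17.0. The longest alignment per gene was kept (90% identity over 80% of their length). Shared stretches were exact 100-base matches in the same orientation over 141767 transcripts. For tests, expected counts were rounded, sizes scaled by TMM (edgeR 4.0.16, R 4.3.3), a prior count of 0.5 used for log2 ratios, and the exact two-sided binomial test adjusted by Benjamini-Hochberg with a threshold of 0.05. The test script was tested on simulated counts. The binomial p-values set the difference between these libraries against counting error only, and those of edgeR against an assumed variation. Neither measures the spread between libraries, and the difference may be technical in part. Ratios within a library were compared by the spread over both libraries, without a test. Other values came from Python 3.11.15 (pandas 2.3.3, scipy 1.17.1, numpy 2.4.6, matplotlib 3.10.9).

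Alternatives were DESeq2 1.42.0 size factors, total-count and spike-in scaling, other count minimums, posterior means, the kallisto layout, an assumed variation in edgeR and each library left out. Members, lists and tests were chosen with earlier results of these data known. The text names every mitochondrial mRNA and rRNA, the pseudogenes, copies chosen by place or sequence, genes from among the up to 4 highest of each list by mean TPM, and list genes under a mean TPM of 1. Mterf1a, Mterf1b, Mterf4, Fastkd2, Fastkd3, Mal and Opalin fall outside that rule and were named after their values were seen. The tRNAs shown were chosen by length.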

Additional observations from a re-analysis of the deposited data

How the results depend on the processing

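No paired analysis was possible because both libraries belong to a single group. With each library left out in turn, the mitochondrial share of gene counts ran from 7.19% to 8.90%, the pseudogene share of the 3 pairs from 78.9% to 80.2%, the log2 ratio of mt-Rnr2 to mt-Rnr1 from 0.51 to 0.57 and the heavy-strand to light-strand log2 ratio from 3.08 to 3.30. In the kallisto layout the pseudogene share was 58.5%, the rRNA ratio 0.72, the strand ratio 2.82 and the median log2 ratio of the mRNAs -0.17. There 14 of 17 members were called, Gm10925 (0.21) and mt-Co2 (0.26) reversed, and mt-Nd3 (-0.01) and mt-Nd4l (-0.45) were no longer called. With posterior mean counts the pseudogene share was 67.8% and mt-Co3 reversed to -0.12. With all 7 genes near the pseudogenes taken as copies the share was 43.9%. Counts per kilobase gave 0.61 for the rRNA ratio and 2.99 for the strand ratio. Spike-in scaling gave a median of -0.12. The edgeR test at an assumed coefficient of variation of 0.1 called 0 of 18 members. Copies were added to their sources as an alternative chosen after seeing the data. It gave a strand ratio of 3.65 and -0.18 for mt-Co3 by the exact binomial test, and 0 calls and again -0.18 for mt-Co3 by edgeR. The causes of these differences were not tested. DESeq2 size factors, total-count scaling with or without the members, no count minimum and a minimum of 50 kept 17 members called and reversed none. The tested members lie far above both minimums, so these could not remove any. The 3 scalings gave a median log2 ratio of the mRNAs of -0.21 to -0.24, against -0.23 in the main test. The share of all genes called under these settings is not given here. The mitochondrial share of gene counts stayed within its replicate SD under every alternative run. With a library left out this was fixed in advance, because the result is the value of the other library. How depth bears on the split between gene and copy was not tested.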
